A study of Rattus norvegicus with 4 samples.

Results

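The genes of cell cycle entry and mitosis described here are 8 of those in the table of hippocampal transcripts: *Ccne1*, *Cenpe*, *Bub1*, *Nusap1*, *Racgap1*, *Kif15*, *Hmmr* and *Brca2*. Every row that carried one of these symbols was used, which gave 10 transcripts of 8 genes among 830 transcripts and 540 gene symbols. *Ccne1* and *Kif15* each had 2 listed transcripts. RNA-seq had been performed on hippocampal punches of male Wistar rats, with 2 samples from rats given fluoxetine and 2 from rats given vehicle, and each sample was a pool of 2 rats. Fluoxetine, a selective serotonin reuptake inhibitor, was given by gavage at 12 mg/kg/day from postnatal day 67 to 88, and the vehicle was 1% methylcellulose on the same days. The rats were killed on postnatal day 128, 40 days after the last dose. The question was which transcripts still differed long after the treatment had ended.

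A cell that divides passes from growth into DNA synthesis when cyclin E activates its kinase, then copies its DNA, builds a spindle, attaches the chromosomes to it through the kinetochores, and splits in cytokinesis. Transcripts of the mitotic machinery accumulate in the later phases of the cycle and are scarce in resting cells. In the adult hippocampus most cells are neurons and glia that no longer divide, and dividing cells are known mainly from the neural progenitors of the dentate gyrus and from glial precursors. In a bulk sample, fewer cells of a type and less RNA per cell cannot be told apart.

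The promoters of late cell cycle genes are known for a CCAAT box, bound by NF-Y, and for the cell cycle homology region, TTTGAA, near the start of transcription. Promoters of 4 genes are shown here. *Hmmr*, *Nusap1* and *Kif15* held these letters, and *Ccne1*, the gene that differed in the opposite direction, did not. *Bub1* and *Brca2*, which had more reads after fluoxetine and are not shown, held no match either. Each promoter shown covers 250 bases before and 50 after the start given by RefSeq on the GRCr8 build. Capitals mark CCAAT or TTTGAA on either strand. The positions are chr10:25665166-25665465 (minus strand), chr3:127057045-127057344 (plus strand), chr8:131479154-131479453 (plus strand) and chr1:99927860-99928159 (minus strand).
Hmmr: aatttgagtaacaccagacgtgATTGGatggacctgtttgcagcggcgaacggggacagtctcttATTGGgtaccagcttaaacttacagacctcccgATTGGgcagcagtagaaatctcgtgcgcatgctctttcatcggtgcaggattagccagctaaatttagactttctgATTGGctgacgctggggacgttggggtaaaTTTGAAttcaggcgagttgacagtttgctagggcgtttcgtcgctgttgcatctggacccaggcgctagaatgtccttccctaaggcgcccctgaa
Nusap1: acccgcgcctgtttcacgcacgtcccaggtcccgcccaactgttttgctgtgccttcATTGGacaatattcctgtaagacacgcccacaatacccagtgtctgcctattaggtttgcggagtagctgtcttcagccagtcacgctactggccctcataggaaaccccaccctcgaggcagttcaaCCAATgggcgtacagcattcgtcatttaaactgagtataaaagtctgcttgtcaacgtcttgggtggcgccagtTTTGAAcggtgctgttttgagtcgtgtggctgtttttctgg
Kif15: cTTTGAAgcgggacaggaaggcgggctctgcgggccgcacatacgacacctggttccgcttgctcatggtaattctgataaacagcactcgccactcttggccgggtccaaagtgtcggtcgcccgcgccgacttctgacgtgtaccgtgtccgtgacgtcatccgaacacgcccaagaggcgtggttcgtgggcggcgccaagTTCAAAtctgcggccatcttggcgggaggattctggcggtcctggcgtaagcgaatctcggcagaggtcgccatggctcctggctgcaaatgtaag
Ccne1: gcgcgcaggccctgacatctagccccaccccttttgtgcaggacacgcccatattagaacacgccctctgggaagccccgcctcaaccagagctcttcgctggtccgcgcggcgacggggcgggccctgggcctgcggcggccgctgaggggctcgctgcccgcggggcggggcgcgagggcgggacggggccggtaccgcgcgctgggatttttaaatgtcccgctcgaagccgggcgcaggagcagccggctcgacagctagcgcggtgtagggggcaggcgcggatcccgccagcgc

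The *Hmmr* promoter held 4 CCAAT matches, all on the strand opposite to the gene, and TTTGAA from 46 to 41 bases before the start. In *Nusap1* there were 2 CCAAT matches and 1 TTTGAA just after the start. *Kif15* held 2 TTTGAA matches, of which 1 lay from 46 to 41 bases before the start on the strand opposite to the gene, and no CCAAT. A single CCAAT was found for *Cenpe*, and no match for *Ccne1*, *Bub1* or *Brca2*. No promoter was at hand for *Racgap1*. Over 33469 rat promoters of this length, 37.5% held CCAAT and 18.3% held TTTGAA, so both are common. None of the 7 promoters held the E2F letters TTTGGCGC, TTTCGCGC, TTTCCCGC or TTTGCCGC, which stood in 2.14% of all promoters. A match to these letters is a description of the sequence only.

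The library totals, as the deposited normalized values imply them, lay between 12512597 and 14080347 reads. Reads summed over the rows of the table came to 1.03% to 1.17% of them. A read shared by several models of a gene counts for each in that sum, and 225 transcripts shared gene and all 4 counts with another. All 830 transcripts had been kept by the authors for a difference between these same samples, so neither a direction nor a p-value given here is independent evidence. Of the members, 8 transcripts of 7 genes had more reads after fluoxetine, where 52.0% of all transcripts were higher, and the 2 transcripts of *Ccne1* had fewer, where 48.0% were lower. In edgeR's quasi-likelihood test no member, and no transcript of the table, passed an adjusted p of 0.05. At an unadjusted p under 0.05, 2 member transcripts were higher (*Hmmr* and *Racgap1*), beside 5.9% of all transcripts called in that direction. The 2 lower ones were both *Ccne1*, beside 17.7% of all transcripts called lower. Scaled on the library totals, the calls over the table split into 60 higher and 74 lower, against 49 and 147 with TMM scaling. With that scaling on totals, 1 higher and 2 lower member transcripts were called. The higher one was *Nusap1*, while *Hmmr* and *Racgap1* were no longer called. The size factors of DESeq2, used in edgeR, gave the same change. DESeq2 called 0 members at an unadjusted p under 0.05. With 2 samples a group, an exact permutation test cannot give a two-sided p under 0.33.

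The plot of reads by sample shows how few reads these comparisons rest on.

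**Figure D1:**
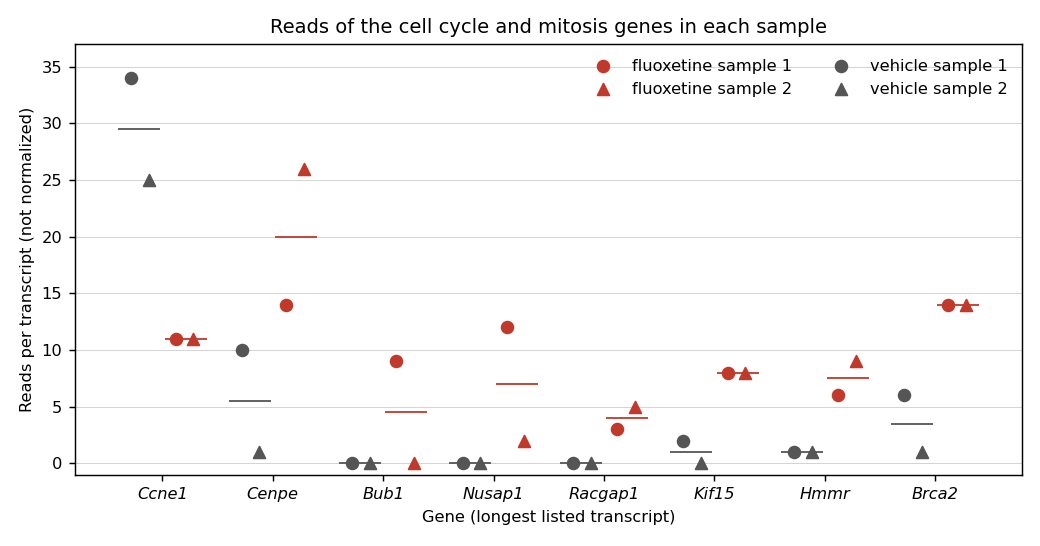
Reads of each gene (longest listed transcript, not normalized, y axis) in the 2 fluoxetine samples (red) and the 2 vehicle samples (grey), with circles for sample 1, triangles for sample 2 and short lines at the group means. *Ccne1* is the only gene with more reads in both vehicle samples, and the vehicle samples of *Bub1*, *Nusap1* and *Racgap1* are at 0.

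*Ccne1* codes for cyclin E1, which drives entry into DNA synthesis. Its 623-base model (3 exons, chr1:90568875-90569700 on rn4, minus strand) had 11 and 11 reads in the fluoxetine samples and 34 and 25 in the vehicle samples. The groups did not overlap, as in 85.7% of the transcripts that were lower after fluoxetine. Normalized reads were 10.4 ± 0.795 (SD, n = 2) after fluoxetine and 31.5 ± 7.06 (SD, n = 2) after vehicle. The log2 fold change was -1.59 with a standard error of 0.50 (edgeR, adjusted p = 0.19). Pooled and scaled on the library totals, vehicle exceeded fluoxetine 2.79-fold, with an exact 95% counting interval from 1.68 to 4.78. Such intervals cover counting error only and leave out the spread between the pools of a group. As the reads carry no molecular identifiers, copies made in amplification count as separate reads in them. The 444-base model of 2 exons lies inside the longer one and shared nearly all its reads, with 11 and 11 against 33 and 25. With any 1 sample left out, the log2 fold change of the 623-base model stayed between -1.74 and -1.35, and its unadjusted p stayed under 0.05 without vehicle sample 2 only.

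*Cenpe* and *Bub1* act at the kinetochore, the former as a motor that brings chromosomes to the spindle equator and the latter as a kinase of the spindle checkpoint. *Cenpe* (7803 bases, 46 exons, chr2:232699627-232758329, plus strand) had 14 and 26 reads after fluoxetine and 10 and 1 after vehicle. Its groups stood apart by 4 reads between the nearest samples, and both spread widely. The log2 fold change was 1.64 with a standard error of 1.00 (edgeR, adjusted p = 0.24). Its size moved with the sample left out, with a log2 fold change of 0.90 without vehicle sample 2, of 1.09 without fluoxetine sample 2, of 1.95 without fluoxetine sample 1 and of 3.98 without vehicle sample 1, the only fit of the 4 with its unadjusted p under 0.05. *Bub1* (2236 bases, 15 exons, chr3:115324461-115339722, minus strand) had 9 reads in fluoxetine sample 1 and 0 in the other 3 samples. Its groups therefore overlapped, and no difference was left without fluoxetine sample 1. Against a floor of 3 reads over the vehicle group, its pooled level was 2.88-fold higher after fluoxetine (edgeR, adjusted p = 0.23). That floor leaves out the counting error of the fluoxetine reads, and the exact 95% counting interval of the ratio began at 1.90.

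*Nusap1*, *Kif15* and *Hmmr* belong to the spindle. *Nusap1*, which bundles spindle microtubules around the chromosomes, had 12 and 2 reads after fluoxetine and 0 and 0 after vehicle (2368 bases, 10 exons, chr3:106134200-106165155, plus strand). Against the same floor its pooled level was 4.49-fold higher after fluoxetine (edgeR, adjusted p = 0.19), but the counting interval of the ratio began at 3.19. Most of its reads came from fluoxetine sample 1, as for *Bub1*. Among the fits with 1 sample left out, its unadjusted p was under 0.05 without fluoxetine sample 2 only.

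*Kif15*, a kinesin that helps to keep the spindle poles apart, had 8 and 8 reads after fluoxetine and 2 and 0 after vehicle. Its models of 4214 bases (35 exons, chr8:127694272-127764633, plus strand) and 4170 bases (34 exons) carried the same reads and count as 1 measurement. Normalized reads were 7.54 ± 0.578 (SD, n = 2) against 1.07 ± 1.52 (SD, n = 2), for a log2 fold change of 2.68 and a standard error of 1.27 (edgeR, adjusted p = 0.199). The ratio of pooled reads was 7.69, with a counting interval from 1.81 to 68.9. Without vehicle sample 2 the log2 fold change was 1.82. Among the fits with 1 sample left out, only that without vehicle sample 1 gave an unadjusted p under 0.05.

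*Hmmr* codes for a hyaluronan receptor that also binds spindle microtubules. The transcript (1568 bases, 12 exons, chr10:25739179-25756634, minus strand) had 6 and 9 reads after fluoxetine and 1 and 1 after vehicle. In neither group did the samples differ by more than 3 reads, and the groups did not overlap. Normalized reads were 6.99 ± 1.46 (SD, n = 2) against 1.07 ± 0.00891 (SD, n = 2), and the log2 fold change was 2.58 with a standard error of 0.94 (edgeR, adjusted p = 0.19). The ratio of pooled reads was 7.21, with a counting interval from 1.68 to 65.0. The log2 fold change lay between 2.22 and 2.77 with any 1 sample left out, but no such fit kept its unadjusted p under 0.05.

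*Racgap1* is a subunit of centralspindlin, the complex that positions the cleavage furrow in cytokinesis. Its model (964 bases, 5 exons, chr7:138371674-138378114, minus strand) had 3 and 5 reads after fluoxetine and 0 and 0 after vehicle. Against the floor of 3 reads the pooled level was 2.56-fold higher after fluoxetine (edgeR, adjusted p = 0.19), but the counting interval of the ratio began at 1.64. No fit with 1 sample left out kept its unadjusted p under 0.05. *Racgap1* had the fewest reads of all members, 8 over the 4 samples.

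*Brca2* acts in the repair of broken DNA by homologous recombination. It codes for a very long protein, of which the listed model held 2294 exonic bases in 12 exons (chr12:4291917-4307117, minus strand). On GRCr8 the *Brca2* promoter lies on the plus strand of chromosome 12, while the other members with a promoter had the same strand on both builds. The reason for this mismatch was not tested, so it is not certain that the reads of this model are of *Brca2* mRNA. There were 14 and 14 reads after fluoxetine and 6 and 1 after vehicle. Normalized reads were 13.2 ± 1.01 (SD, n = 2) against 3.75 ± 3.81 (SD, n = 2), and the log2 fold change was 1.78 with a standard error of 0.93 (edgeR, adjusted p = 0.215). The size moved with the vehicle samples, with a log2 fold change of 1.09 without vehicle sample 2 and of 3.49 without vehicle sample 1, where alone its unadjusted p was under 0.05.

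**Figure D2:**
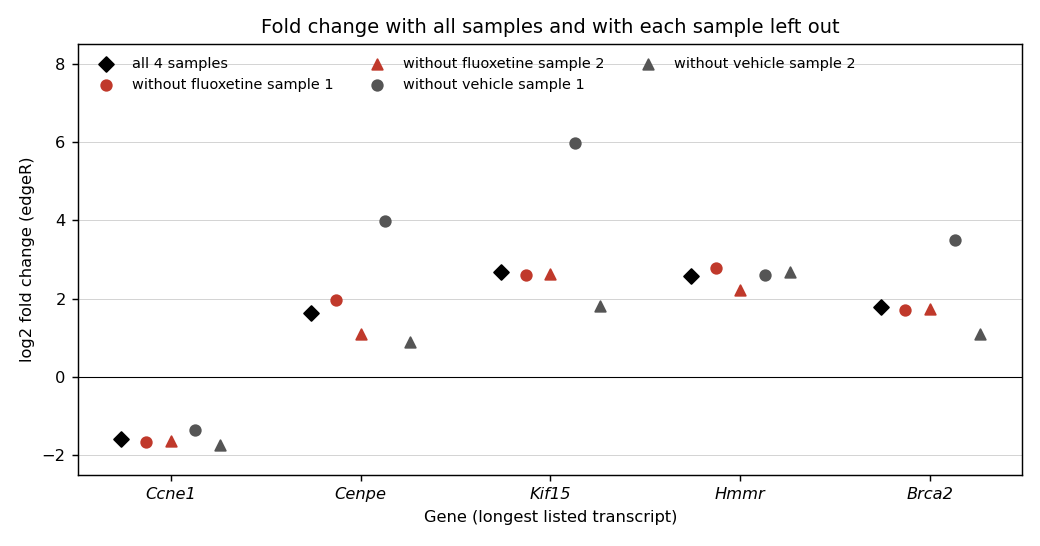
log2 fold change (edgeR, fluoxetine over vehicle, y axis) of the 5 genes with reads in both groups, with all 4 samples (black) and with each sample left out (red for a fluoxetine sample, grey for a vehicle sample). *Ccne1* stays between -1.74 and -1.35 and *Hmmr* between 2.22 and 2.77, while *Kif15* and *Brca2* move with the vehicle sample left out and *Cenpe* with samples of both groups. Without vehicle sample 1 *Kif15* has no vehicle read, and its fitted value there is no measured fold.

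Summed over the 7 genes that were higher, with 1 transcript each, there were 66 and 64 reads in the fluoxetine samples and 19 and 3 in the vehicle samples. The fluoxetine samples were near each other in this sum and the vehicle samples were not. Differences of single genes offset each other in it. *Bub1* (9 and 0) and *Nusap1* (12 and 2) had more reads in fluoxetine sample 1. *Cenpe* (14 and 26), *Hmmr* (6 and 9) and *Racgap1* (3 and 5) had more in sample 2, and *Kif15* and *Brca2* had equal reads. Per 10000000 library reads the sums over the 7 genes were 46.9 and 47.4 against 13.6 and 2.40. *Nusap1*, *Bub1* and *Racgap1* together held 24 and 7 reads after fluoxetine and 0 and 0 after vehicle. No vehicle read was also the case for 8.33% of all transcripts that were higher after fluoxetine. Both fluoxetine samples exceeded both vehicle samples in 7 of the 8 higher member transcripts, beside 58.8% of all higher transcripts. With 1 transcript for each gene, as the 2 *Kif15* models carried the same reads, this held for 6 of the 7 higher genes.

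On the per-length scale of the deposited values (reads per exonic base per 10000000 library reads) *Ccne1* stood above the other members in every sample. Its models of 623 and 444 bases span only 826 and 541 bases of the genome, against 6441 to 70362 for the other members. Which part of the gene they cover was not determined, so its levels and fold changes are those of this short stretch. The 623-base model had levels of 0.01254 and 0.01307 after fluoxetine and 0.03895 and 0.03207 after vehicle. *Brca2* came next after fluoxetine with 0.00433 and 0.00452, above *Hmmr* with 0.00272 and 0.00425. *Racgap1* followed with 0.00221 and 0.00384, *Nusap1* with 0.0036 and 0.00063, *Cenpe* with 0.00127 and 0.00247, *Bub1* with 0.00286 and 0, and *Kif15* with 0.00135 and 0.0014. From *Hmmr* down, each gene overlapped the next in this order between its samples. In the vehicle samples the order was *Brca2* with 0.00187 and 0.00035, *Cenpe* with 0.00091 and 0.0001, *Hmmr* with 0.00046 and 0.00051 and *Kif15* with 0.00034 and 0, and the first pairs of neighbours overlapped while *Hmmr* and *Kif15* did not. Mean levels of the transcripts other than *Ccne1* lay between the 3.73 and 23.5 percentiles of the table, and those of *Ccne1* at 60.4 and 64.6.

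The median log2 fold change over the 8 genes was 2.63, beside 0.49 over all 830 transcripts and 1.10 over the 432 higher ones. With genes at 0 in a group placed at their fold against the floor of 3 reads, the medians were 1.71 for the 8 genes and 0.49 for all transcripts. In the plot of fold change against read number, the transcripts with few reads have the large fold changes throughout the table, and the members follow that pattern. They had 8 to 81 reads over the 4 samples, while the median over the table was 73.5.

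**Figure D3:**
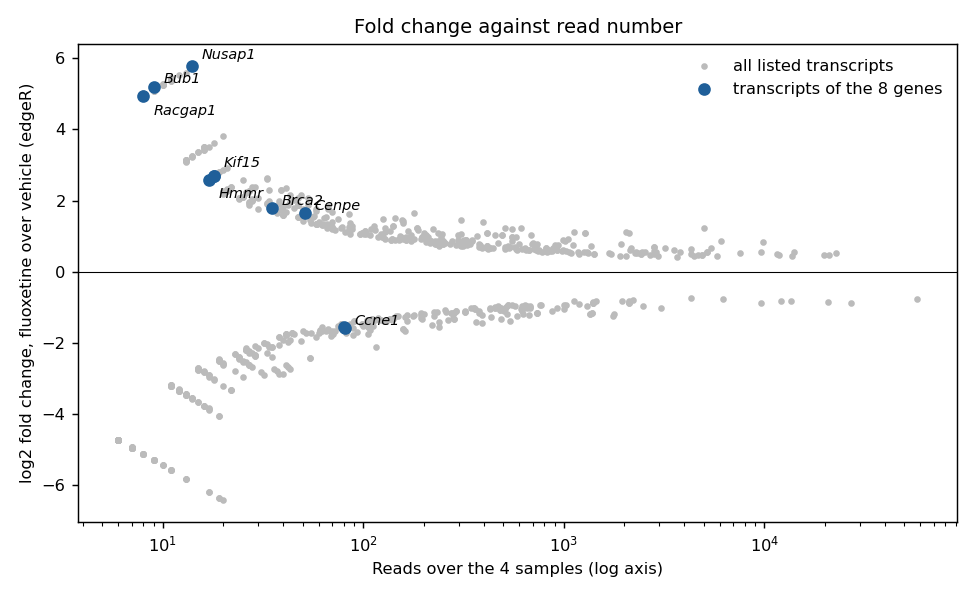
log2 fold change (edgeR, y axis) against reads over the 4 samples (log x axis) for all 830 transcripts (grey) and the 10 transcripts of the 8 genes (blue). *Bub1*, *Nusap1* and *Racgap1* have no vehicle read, so their fitted values near the top are no measured folds; *Ccne1* is the only member below 0.

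A wider list of 280 cell division genes, sorted by role, had 17 genes in the table, including the 8 members. Of these 17, 11 were higher and 6 lower after fluoxetine, edgeR called 3 in each direction at an unadjusted p under 0.05, beside 5.9% of all transcripts called higher and 17.7% called lower, and 0 after adjustment. The genes of the list outside the table were not analysed here. Without the members, 4 genes were higher and 5 lower.

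Among the 4 higher ones was *Nhej1*, which acts in the joining of broken DNA ends, with 10 and 18 reads after fluoxetine and 3 and 3 after vehicle (edgeR, log2 fold change 1.98, standard error 0.72, adjusted p = 0.19). The others were the helicase *Mcm8* with 41 and 28 against 17 and 12 reads, *Fancc* of the Fanconi anaemia pathway with 38 and 48 against 29 and 9, and the small GTPase *Cdc42*, whose groups overlapped with 2011 and 814 against 1074 and 771. Of the 4, *Nhej1* alone had an unadjusted p under 0.05. *Cdc42* is used by many cells that do not divide.

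The 5 lower genes included central parts of the same machinery. *Cdk1*, the kinase that starts mitosis, had 0 and 0 reads after fluoxetine and 0 and 6 after vehicle, so its groups overlapped. *Kif11*, the motor that pushes the spindle poles apart and whose work *Kif15* can share, had 1 and 5 reads after fluoxetine and 8 and 15 after vehicle. Its direction was opposite to that of *Kif15*. *Mcm6*, a subunit of the replication helicase, had 4 and 0 against 7 and 20 reads. The nuclease *Exo1* had 0 and 0 against 2 and 7 reads, and *Fancd2*, of the same pathway as *Fancc*, had 0 and 0 against 3 and 3. Against a floor of 3 reads over the fluoxetine group, *Exo1* was 3.12-fold and *Fancd2* 2.08-fold lower after fluoxetine. That floor leaves out the counting error of the vehicle reads. The counting intervals of their ratios, vehicle over fluoxetine, began at 2.05 and 1.22. Of the 5, *Exo1* and *Fancd2* had an unadjusted p under 0.05.

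**Figure D4:**
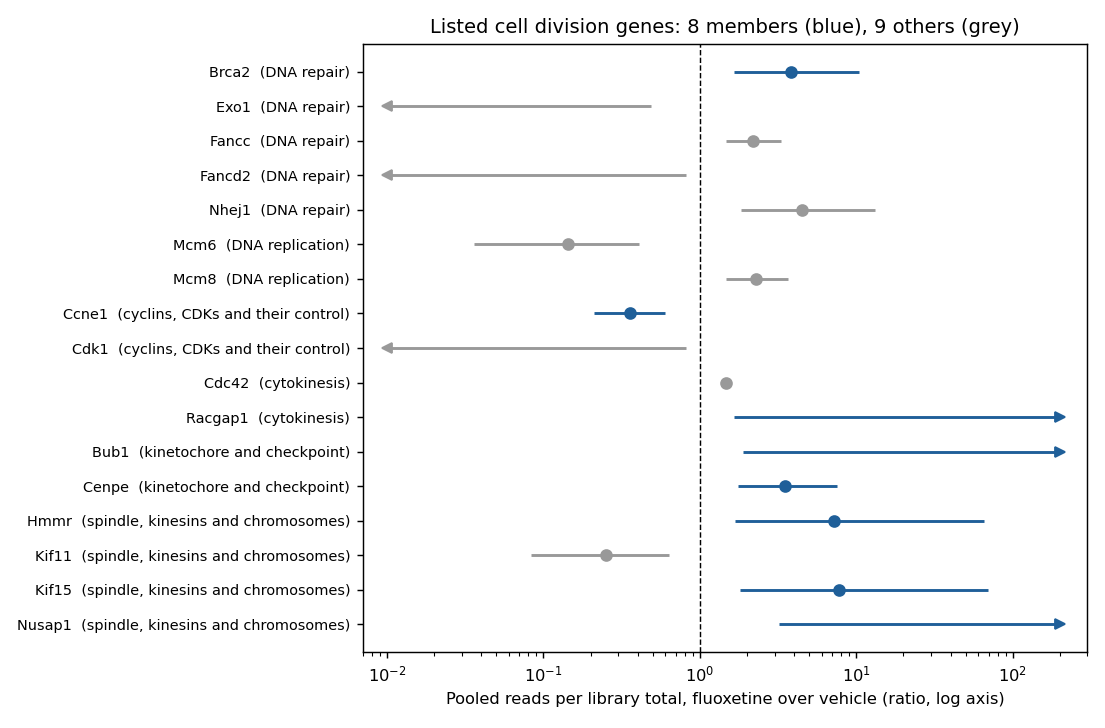
Ratio of pooled reads per library total, fluoxetine over vehicle (log x axis), for the 17 listed cell division genes by role, with points for the ratio, bars for the exact 95% counting interval and arrows where a group had no read. The members are blue and the other 9 genes grey; members other than *Ccne1* lie right of 1, and the grey genes lie on both sides.

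Markers of other cells that a punch can hold were also counted. None of the 22 genes chosen here for progenitors and immature neurons, and none of the 21 chosen for endothelium, was among the listed transcripts. These lists are not complete, so other genes of such cells can be in the table. As the table holds only transcripts kept for a difference, absence from it says nothing about the cells. *Ly86* was the 1 listed gene of 23 for microglia, with 16 and 25 reads after fluoxetine and 5 and 8 after vehicle. *Cspg4* was the 1 of 17 for oligodendrocyte precursors, with 4 and 1 against 12 and 11 reads on a model of 450 bases. With 1 listed gene each, these lists do not describe the amount of either cell type. Of 26 red blood cell genes 4 were listed, with summed reads of 814 and 656 after fluoxetine and 785 and 2179 after vehicle. Vehicle sample 2, which had the fewest reads of *Cenpe*, *Kif15* and *Brca2*, thus held the most red blood cell reads. Outside the members, the same sample had the fewest reads of *Mcm8*, *Fancc* and, in the counts given above, *Cdc42*. It had the most of *Cdk1* (6), *Kif11* (15), *Mcm6* (20) and *Exo1* (7), so low reads in it were not general to cell division genes. Nearly all the red blood cell reads were of *Hba-a2*, *Hbb* and *LOC360504*. The remaining gene, *Epb42*, went the other way, with 9 and 10 reads after fluoxetine and 1 and 1 after vehicle. The part of red blood cells in the result was not tested. Of 29 hippocampal neuron genes 4 were listed, *Wfs1*, *Nov*, *Pou3f1* and *Cpne4*. *Wfs1*, a marker of CA1 neurons, had 4043 and 8847 reads after fluoxetine and 3522 and 4545 after vehicle, and its groups overlapped, as did those of *Nov* and *Pou3f1*. *Cpne4* (1675-base model) had fewer reads after fluoxetine, 305 and 260 against 468 and 422, and its groups did not overlap.

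Of 316 listed genes with enough reads to compare, those near *Ccne1* over the 4 samples included *Efna4*, *Aloxe3*, *Ttll4* and *Trpm3*, with root mean square differences of 0.107 to 0.126 in log2 normalized reads. *Efna4*, which codes for an ephrin ligand, had 6 and 5 reads after fluoxetine and 18 and 15 after vehicle. The nearest to the sum of the 7 higher genes were less close, at 0.520 to 0.585. They were *Slc39a12*, *Zfp278*, *Sec24a*, *Zfp52* and a gene with only an Ensembl identifier. *Sec24a* had 23 and 31 against 10 and 3 reads. With 4 samples, such likeness is a description.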

How the data were processed

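RNA-seq was performed by the authors on 4 samples, each a pool of 2 rats, with single reads of 36 bases aligned to the rat genome (rn4, per the submitters' processing notes) with 1 mismatch allowed, and only uniquely placed reads were kept. The deposited table gives read counts per transcript, counted by the authors with Genomatix software, and a normalized signal (NE), their reads per exonic base and library size; the library totals were recovered from it. The sources used here do not say if counting was by strand, so reads of overlapping antisense genes cannot be told apart. Before deposition the authors had reduced the table by DESeq, at a p-value threshold of 0.05, and by a fold change of at least 1.5. Their p-value, fold change and group mean columns were not used, and 0 of the 8 per-sample columns were left out. The columns are named treat and ctrl with a number and were taken as the fluoxetine and vehicle samples of that number, a match that the labels do not state and on which every per-sample value rests. As the labels name no further replicates, p-values rest on the spread between 2 pools a group. In edgeR that spread is moderated over all transcripts of the table, and TMM scaling was computed on them alone. Their selection for a difference thus enters both.

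Counts of all 830 transcripts were tested with edgeR 4.0.16 (R 4.3.3; quasi-likelihood test, TMM, no filter, treatment only), with Benjamini-Hochberg adjustment over all of them, and the script was tested on simulated data. Normalized reads are counts over the TMM effective library size, times the mean size. Models taken from mouse Ensembl (*Ccne1*, *Racgap1*) or from accessions of no current rat gene (*Brca2*, *Cenpe*, *Bub1*) are as deposited. Levels between genes were compared on NE only. The text names all members, listed genes of the cell division, meiosis and marker lists, and the 5 genes nearest to *Ccne1* and to the summed higher members in log2 normalized reads (minimum mean of 10), of which 1 is not reported here. Members and lists were chosen with earlier results of these data known. Alternatives used DESeq2 1.42.0, limma 3.58.1 on log2(NE + pseudocount), other scalings, a minimum of 10 reads, repeated transcripts counted once, a replicate block and each sample left out.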

Additional observations from a re-analysis of the deposited data

How the results depend on the processing

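No member transcript changed direction under any alternative: of 116 values of single transcripts, 115 kept their direction and side of the adjusted threshold, and the exception was *Racgap1*, with an adjusted p of 0.0264 in limma on NE (pseudocount 1e-04). The direction was close to fixed beforehand, as all transcripts had been kept for a difference between these samples. In 9 of the 10 member transcripts the groups did not overlap, so leaving out 1 sample could hardly reverse them. That fit called 1 member and 56 transcripts of the table after adjustment, where edgeR called 0 and 0, and with a pseudocount of 0.001 it called 0 members. At an unadjusted p under 0.05 the count of member transcripts was 4 in the main test, 7 in limma on NE and 0 in DESeq2, and lay between 0 and 4 with 1 sample left out (0 when fluoxetine sample 1 was left out, 1 when fluoxetine sample 2 was, 2 when vehicle sample 2 was). Over the 830 transcripts of the table the count was 196 in the main test, 241 in limma on NE and 10 in DESeq2, and between 65 and 149 with 1 sample left out. The median log2 fold change of the 8 genes, 2.63, was 1.25 in limma with the larger pseudocount and lay between 2.24 and 4.48 with 1 sample left out, the highest without vehicle sample 1. Scaling on library totals moved the median of all transcripts from 0.49 to 0.61. The causes of these differences were not tested.

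With the replicate block, 2 member transcripts had an unadjusted p under 0.05, both of *Ccne1*, and 231 of the table did. Samples share only a number: the differences between samples 1 and 2 of both groups correlated at 0.523 over 503 transcripts, which is 1 comparison of 2 pairs. *Bub1* gave no value without fluoxetine sample 1, and *Bub1* and *Racgap1* none with a minimum of 10 reads. Counts of 8 to 81 reads limit every fold given here.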

Other observations

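Genes of meiosis, the division that forms germ cells, were also listed, 4 of 28, and none had an adjusted p under 0.05 in edgeR. Of these, 3 had more reads after fluoxetine. *Dmc1*, the recombinase of meiosis, had 19 and 5 reads after fluoxetine and 0 and 4 after vehicle. *Stag3*, a meiotic cohesin subunit, had 1 and 12 reads after fluoxetine and 0 and 0 after vehicle, nearly all in fluoxetine sample 2. *Prdm9*, which sets the places of meiotic recombination, had 15 and 13 reads against 5 and 2. *Sycp3*, of the axis of paired chromosomes, went the other way with 2 and 0 against 10 and 3 reads. The red cell membrane gene *Epb42* had 9 and 10 reads after fluoxetine and 1 and 1 after vehicle, while *Hbb* had 303 and 262 against 315 and 886.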
